A study of Mus musculus with 25 samples.

Results

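Polysomal RNA of podocytes from control mice was compared between 44 and 5 weeks of age. The comparison rests on 9 of the 25 arrays of the series, chosen by their titles: 4 arrays at 44 weeks, which the titles give as 10 months, and 5 arrays at 5 weeks. The other arrays served only to estimate the spread and, in part, as a second set of ages. All mice were of the C57/129sv strain and carried the transgene Tg:Col1a1-eGFPL10a, in which a collagen 1α1 promoter and enhancer element drives a green fluorescent protein joined to the ribosomal protein L10a. The control mice are labelled WT. A second set, labelled KI, carried the same transgene and the allele Actn4tm1.1Plk, a mutation of the actin crosslinker alpha-actinin-4, with 4 arrays at each age; its values are given beside those of WT. Sex was labelled unknown for every array. Nothing in the labels ties every array to a separate animal. The p-values therefore measure only the spread between these samples, which may be technical. Precision is limited by how few arrays there are, with a typical standard error (the median over genes) of 0.17 log2 units.

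Podocytes are the epithelial cells that wrap the glomerular capillaries with interlocking foot processes. Nephrin and its partners form the slit diaphragm between these processes, an actin cytoskeleton holds their shape, and integrins fix them to a basement membrane of type IV collagen and laminin. Podocytes have left the cell cycle in the mature kidney and are poorly replaced, which is why their state in aged mice is of interest. In translating ribosome affinity purification (TRAP), ribosomes that carry the tag are pulled from a tissue lysate, so that the RNA bound to them reports what the tagged cells translate. The collagen 1α1 promoter is also used by fibroblasts and osteoblasts, and RNA of untagged cells can be carried along.

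Podocyte transcripts were abundant on all 9 arrays. Wt1, the transcription factor that marks podocytes, read 12.28 to 12.54 at 5 weeks and 12.23 to 12.40 at 44 weeks (deposited log2 values). Synpo, the actin-associated synaptopodin, read 12.52 to 12.70 and 12.40 to 12.53, and Nphs1, which encodes nephrin, read 10.32 to 11.03 and 10.81 to 11.49. The mean over 31 podocyte identity genes was 10.61 ± 0.07 (SD, n = 5) at 5 weeks and 10.70 ± 0.15 (n = 4) at 44 weeks. Markers of other kidney cells were measured on the same arrays, and the means of their lists differed between the ages, without a test. By array, the ages overlapped for the tubule, endothelial and macrophage means, and did not for the fibroblast and osteoblast mean. The mean of 50 tubule markers was 8.04 ± 0.39 (n = 5) at 5 weeks and 8.68 ± 0.53 (n = 4) at 44 weeks, highest on 44-week array 15 (9.38), where the podocyte identity mean was lowest (10.47). The mean of 23 endothelial markers was 6.84 ± 0.36 and 7.20 ± 0.43, that of 16 macrophage markers 5.20 ± 0.38 and 5.74 ± 0.45, and that of 20 fibroblast and osteoblast markers 7.98 ± 0.66 and 7.00 ± 0.34. In bulk RNA, fewer cells of a type and less RNA per cell cannot be told apart.

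Controls on the arrays also differed between the ages. The actin control's 3′ minus 5′ signal, a measure of RNA integrity and amplification length, was 1.47 to 1.63 at 5 weeks and 0.78 to 1.24 at 44 weeks. The 18S ribosomal RNA signal was 8.14 to 9.97 at 5 weeks and 10.78 to 11.36 at 44 weeks, so neither measure overlapped between the WT ages. In KI the group means were 1.17 and 1.24 for the actin measure and 10.30 and 9.95 for 18S. Y-linked genes were high on 2 of 5 WT arrays at 5 weeks and on 1 of 4 at 44 weeks. The part of these measures in the results was examined only by fits that hold one of them as a covariate.

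**Figure D1:**
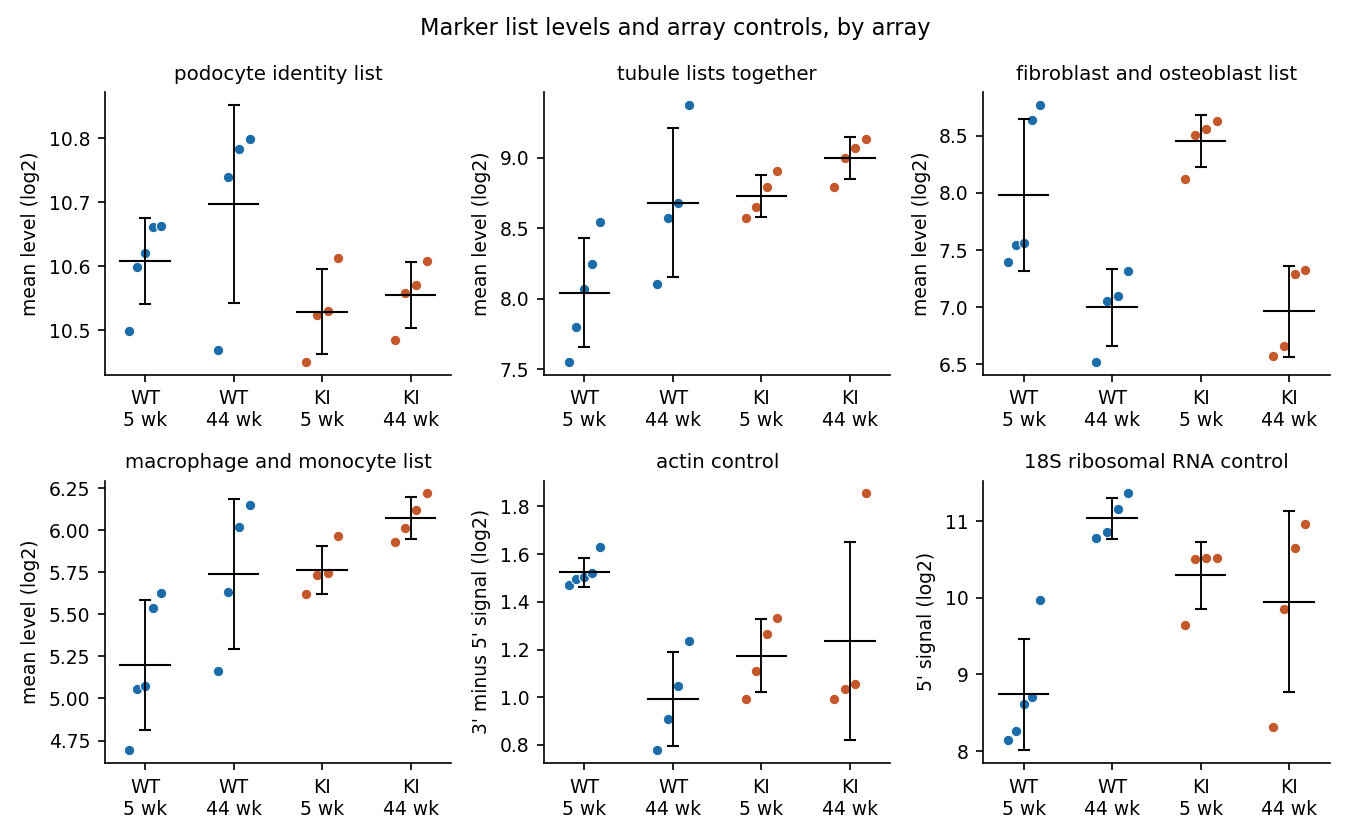
Mean log2 level of 4 marker lists and 2 array controls (log2, vertical axes) on each array, with WT in blue and KI in orange at 5 and 44 weeks; lines are group means and bars 1 SD. The actin 3′ minus 5′ signal and the 18S signal do not overlap between the WT ages (1.47 to 1.63 against 0.78 to 1.24, and 8.14 to 9.97 against 10.78 to 11.36).

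Of 11968 genes tested with limma, 2408 (20.1%) had an adjusted p (Benjamini-Hochberg) under 0.05, which is called passing here. At 44 weeks 1349 genes (11.3%) were higher and 1059 (8.85%) lower, and 232 (1.94%) and 122 (1.02%) differed by more than 2-fold. The WT arrays of both ages did not overlap for 1454 genes (12.1%), and 1239 of those passed (10.4% of all tested). With each array centred on its median the same test called 669 genes higher and 1731 lower, which takes the share of higher calls from 56.0% to 27.9%; after quantile normalization it was 42.1%. The median over genes was 6.25 to 6.49 on the 5-week and 6.45 to 6.55 on the 44-week arrays, and centring moved the median difference over all genes from 0.05 to -0.08. Counts in the gene lists that follow stand against the 11.3% of all genes that rose and the 8.85% that fell. The count fell to 334 with the 18S signal as a covariate, to 780 with the actin measure and to 567 with only the 9 arrays in the fit, and without WT 44-week array 18 the genes called higher fell to 834. Of the 106 called genes named here, 26 passed in every alternative that gave them a value: Pigr, Jchain, Igkj1, Igkv1-135, Creg2, Apob, Astn1, Folh1, Adam9, Ern1, Npc2, Cox6b1 and Rpl23a, which rose, and Col3a1, Col1a1, Nid1, Cotl1, Ccnd2, Dhcr7, Defa21, Nrep, H2bu2, Obox2, Tcf3, Polr3gl and Higd1a, which fell. Among these, Jchain, Igkv1-135, Apob, Defa21 and Obox2 were dim in WT at 5 or at 44 weeks. For the reason given next, their passing lends no support.

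For 13 of the 113 genes plotted for WT and KI, the mean at one WT age lay under 4.60, the log2 level below which a gene's mean over all 25 arrays left it out of the test. They are Jchain, Igkv1-135, Lmx1b, Aldh1a7, Aqp4, Apob, Pm20d1 and Trib3, dim at 5 weeks, and Mki67, Defa21, Nav3, Obox2 and Dclk1, dim at 44 weeks. Such genes entered the test through the arrays on which they are bright, so their differences are given as descriptions, without a p, and the sizes depend on the signal floor.

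The largest rises were those of transcripts of antibody transport and of antibodies. Pigr encodes the polymeric immunoglobulin receptor, which carries dimeric IgA and IgM across epithelia. Its value was 6.18, 5.09, 6.72, 8.04 and 7.96 on the 5-week arrays and 12.76, 12.00, 12.88 and 12.22 on the 44-week arrays. Every 44-week array lay above every 5-week array, by more than the spread within either age, and the difference was 5.67 ± 0.45 (log2 ± SE), or 50.8-fold, with a limma adjusted p of 9.45e-08. Its 2 probe sets rose by 5.34 and 5.67. Jchain, the joining chain that links such antibody dimers, read 3.71, 3.34, 3.52, 5.36 and 3.48 at 5 weeks and 8.99, 7.74, 9.67 and 8.56 at 44 weeks. The groups did not overlap, and 4 of the 5 young arrays lay under 4.60, so the difference of 4.86 ± 0.39 is set against a dim baseline. The same holds for the variable segment Igkv1-135, which differed by 2.34 ± 0.22. Igkj1, of the kappa light chain locus, was above the limit at both ages and rose by 4.42 ± 0.51 (adjusted p = 1.05e-05). In KI the differences of Pigr, Jchain, Igkj1 and Igkv1-135 were 3.58, 3.56, 3.98 and 1.12.

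The promoter of Pigr is shown because this gene moved most. The RefSeq window around the start of the gene lies at chr1:130826434-130826733 (GRCm38.p6, plus strand), written 5′ to 3′ with capitals for CACGTG, the E-box bound by basic helix-loop-helix zipper factors.
Pigr: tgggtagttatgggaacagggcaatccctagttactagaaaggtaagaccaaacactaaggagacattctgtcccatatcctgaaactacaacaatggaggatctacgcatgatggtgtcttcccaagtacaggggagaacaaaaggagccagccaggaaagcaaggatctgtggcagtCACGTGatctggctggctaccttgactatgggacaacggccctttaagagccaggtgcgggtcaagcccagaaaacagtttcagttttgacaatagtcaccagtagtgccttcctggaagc
CACGTG, which reads the same on both strands, occurs once in this window and in 7.15% of the 32851 RefSeq promoter windows.

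Antibody segments were measured by 16 genes in all, of which only 3 were bright enough to be tested. Of the 16, 6 had 44-week WT arrays that lay above all 5-week arrays, and 4 differed by more than 2-fold. Among all genes tested, 12.1% had no overlap in either direction, and 1.94% passed as over 2-fold higher. The list was made after the values were seen, and its untested genes lie near the signal floor, so these counts are a description. Those below the limit included Iglv1, of the lambda light chain, at 3.65 ± 0.12 (n = 5) and 6.73 ± 1.18 (n = 4), Igkv15-103 at 3.27 ± 0.14 and 6.54 ± 1.18, and Ighm, of the IgM heavy chain, at 4.15 ± 0.11 and 4.87 ± 0.31. Igha, of the IgA heavy chain, read 3.07 and 3.06. Immunoglobulin segments share sequence, so a probe set may read relatives of the named segment. Of 24 listed B and plasma cell genes, 14 were matched to a probe set, and 5 of these were bright enough to be tested. Of the 5, 2 passed as higher, Jchain and Derl3 (0.30), both under 4.60 at 5 weeks, and none fell.

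Bhmt and Creg2 were among the other large rises. Bhmt, the betaine-homocysteine methyltransferase of methionine metabolism, read 4.60, 5.67, 4.83, 5.13 and 7.36 at 5 weeks and 7.85, 8.60, 9.44 and 9.64 at 44 weeks, a rise of 3.36 ± 0.68 (adjusted p = 0.002). Apob, the apolipoprotein of lipid-carrying particles, read 3.40 to 3.85 on the young arrays and 7.07, 4.76, 6.38 and 6.77 on the old ones. All 5 young arrays were under the limit of 4.60, and the difference was 2.55 ± 0.32. The groups did not overlap for either gene, and array 16 was the lowest old array for Apob. Creg2, a secreted glycoprotein of the brain, rose by 2.91 ± 0.36 (2.04e-05), from 4.31, 6.58, 5.08, 4.74 and 5.92 to 7.74, 8.46, 7.89 and 8.85. Creg2 rose by 4.04 ± 0.38 in KI, the largest rise among the named genes there.

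Aldh1a7, an aldehyde dehydrogenase, differed by 3.33 ± 0.72, with old arrays spread from 5.98 to 9.94. The retinal dehydrogenase family has close relatives, and the probe set may read more than one of them. The water channel Aqp4 differed by 2.82 ± 0.69, but its 3 probe sets gave -0.25 to 2.82. Pm20d1, an enzyme of N-acyl amino acids, differed by 2.30 ± 0.45. Astn1, the neuronal adhesion protein astrotactin, rose by 2.42 ± 0.40 and Folh1, a folate hydrolase of the brush border, by 2.41 ± 0.37 (adjusted p = 0.000328 and 0.00015). Serpina1b, an antitrypsin, rose by 2.31 ± 0.58, the leucine-rich repeat protein Lingo2 by 2.11 ± 0.40 and the ileal bile acid transporter Slc10a2 by 2.04 ± 0.47 (0.00846, 0.00134 and 0.00539). For all of these the WT ages did not overlap. Bhmt, Aldh1a7, Aqp4, Serpina1b and Slc10a2 did not pass without 5-week arrays 7, 8 and 9, and Aldh1a7 and Serpina1b did not pass with the tubule markers as a covariate.

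**Figure D2:**
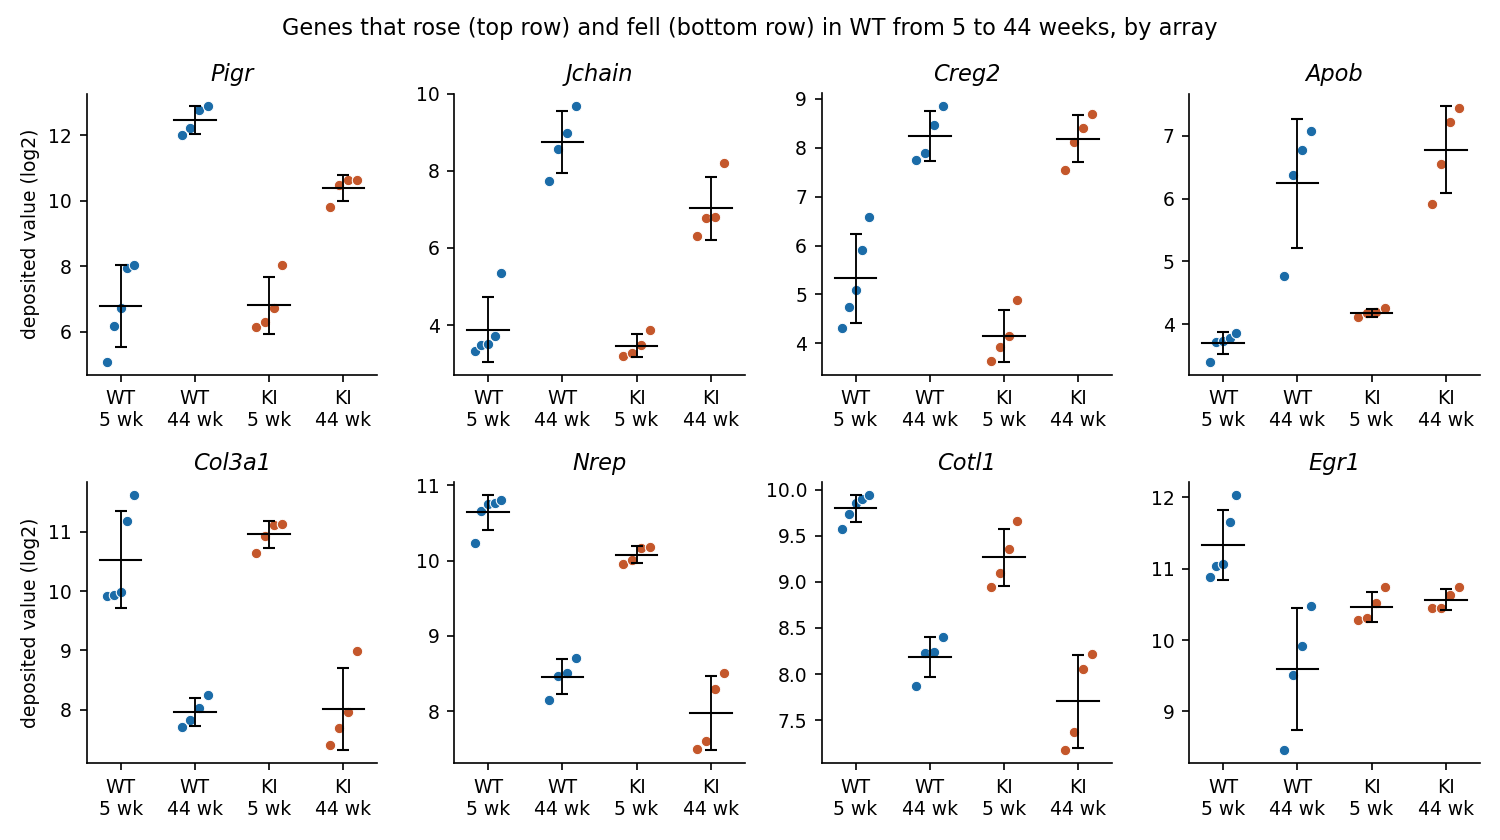
Deposited log2 value (vertical axes) of 4 genes that rose and 4 that fell in WT, for each array of WT (blue) and KI (orange) at 5 and 44 weeks; lines are group means and bars 1 SD. The WT ages do not overlap for any of the 8 genes, and Egr1 stays between 10.28 and 10.75 on the KI arrays of both ages.

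Several collagen transcripts fell. Col3a1, the chain of type III collagen, read 11.63, 9.93, 9.91, 9.99 and 11.19 at 5 weeks and 8.25, 7.71, 7.83 and 8.02 at 44 weeks. Col1a1, whose promoter drives the ribosome tag, read 10.43, 8.50, 8.68, 8.12 and 10.37 at 5 weeks and 7.50, 7.01, 6.44 and 6.97 at 44 weeks. Neither gene overlapped between the ages, and 5-week arrays 6 and 10 were the highest for both. Col3a1 fell by 2.58 ± 0.32 (5.97-fold, adjusted p = 1.97e-05) and Col1a1 fell by 2.24 ± 0.39 (4.72-fold, 0.000666). Col6a1, a chain of the microfibrillar type VI collagen, fell by 1.67 ± 0.29 (0.000607). Of 27 collagen chains tested, a list made after the values were seen, 8 fell (Col3a1, Col1a1, Col6a1, Col5a2, Col6a2, Col14a1, Col4a2 and Col4a4) and none rose, against 8.85% of all genes that fell; the median difference was -0.49, and 0.05 over all genes. Without array 6 or 17 the falls were 4, without array 16 they were 5, and with the 18S or the actin covariate 2 or 4.

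The fibroblast and osteoblast markers, which hold several of these collagens, gave 8 falls and no rise among 20 tested, with a median of -0.97. In KI 14 of the same 20 fell, with a median of -1.65. Besides the collagens, Dpt, the matrix protein dermatopontin, fell by 2.06 ± 0.48 and Eln, elastin, by 1.44 ± 0.26 (adjusted p = 0.00557 and 0.000897). Dpt overlapped between the ages (7.39 to 9.71 against 5.80 to 7.48), and Eln did not (7.15 to 8.26 against 6.01 to 6.35). Of 14 mesangial, pericyte and smooth muscle markers 2 fell and none rose, with a median of -0.27; Pdgfrb, the PDGF receptor of pericytes and mesangium, fell by 0.80 ± 0.21 (0.0114), and the smooth muscle actin Acta2 differed by -0.49. With 5-week arrays 7, 8 and 9 left out, 14 of the 20 fibroblast and osteoblast markers fell, with a median of -1.81, and with the 18S covariate 2 fell, with a median of -0.996.

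Nrep and Tcf3 were among the other large falls. Nrep, a regulator of neuronal regeneration, read 10.67, 10.76, 10.75, 10.80 and 10.24 at 5 weeks and 8.15, 8.51, 8.71 and 8.47 at 44 weeks. The gap between the groups was larger than the spread within either, and Nrep fell by 2.18 ± 0.19 (adjusted p = 2.78e-07). Tcf3, the E-protein transcription factor, fell by 1.56 ± 0.16 (2.67e-06), from 7.65 to 8.40 down to 6.43 to 6.79. Heyl, a target of Notch signalling, fell by 1.56 ± 0.23 (0.000129) and Ptn, the growth factor pleiotrophin, by 1.60 ± 0.33 (0.00248). The histone H2bu2 fell by 2.04 ± 0.30 (0.000121). Dclk1, a doublecortin-like kinase, differed by -1.57 ± 0.34 and the neuron navigator Nav3 by -1.86 ± 0.43. In KI the differences of Nrep, Tcf3, Heyl, Ptn, Dclk1 and H2bu2 were -2.10, -1.04, -1.20, -1.25, -1.83 and -1.80.

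Probe sets named for Defa21, an alpha-defensin of the gut, for the homeobox gene Obox2 and for Tpgs2, of tubulin polyglutamylation, also read lower at 44 weeks. Defa21 read 8.77, 8.22, 7.65, 7.62 and 8.11 at 5 weeks and 4.10, 4.69, 4.56 and 4.99 at 44 weeks, a difference of -3.49 ± 0.30. This was the lowest difference of all genes described, and the groups did not overlap. Alpha-defensins and Obox genes are families of near-identical copies, so the gene read by these probe sets is uncertain. Obox2 differed by -1.64 ± 0.29. Tpgs2 fell by 1.59 ± 0.17 (adjusted p = 5.07e-06), but its 4 probe sets gave -1.59 to 0.42.

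Podocyte identity genes moved in both directions. Of 31 tested, 5 rose (16.1%, against 11.3% of all genes), 3 fell (9.68%, against 8.85%) and 23 did not pass, with a median of -0.01. The 5 include Lmx1b, which was dim at 5 weeks. Cdkn1c, the cell cycle inhibitor p57 of mature podocytes, read 11.67, 11.75, 11.90, 11.57 and 12.30 at 5 weeks and 12.29, 12.46, 12.44 and 12.61 at 44 weeks, a rise of 0.61 ± 0.14 (adjusted p = 0.00541). Only 5-week array 10 reached the old arrays. The chloride channel protein Clic3 rose by 0.63 ± 0.17 (0.0144) and the LIM homeobox factor Lmx1b differed by 0.60 ± 0.16, both with overlap between the ages. Ddn, the cytoskeletal protein dendrin of the slit diaphragm, read 12.33, 12.41, 12.16, 12.26 and 12.11 at 5 weeks and 11.67, 11.89, 11.87 and 11.96 at 44 weeks and fell by 0.41 ± 0.10 (0.00711), with no overlap. Podxl, the sialoprotein podocalyxin of the foot process surface, fell by 0.21 ± 0.07 (0.0345), and the mean of its 2 probe sets was 0.20. Wt1 (-0.13 ± 0.08), Synpo (-0.13 ± 0.08) and Nphs1 (0.30 ± 0.21) did not pass (0.229, 0.235 and 0.307).

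Among 18 slit diaphragm and polarity genes 2 rose, 3 fell (1 without array 7, 9 or 15) and the median was -0.02. Prkcz, the atypical protein kinase C zeta of cell polarity, rose by 0.82 ± 0.22 (adjusted p = 0.0136), from 7.48 to 8.67 up to 8.76 to 9.52. Fat1, a giant protocadherin of the slit diaphragm, fell by 0.37 ± 0.09 (0.00888), from 11.60 to 11.90 down to 11.18 to 11.54. Neither gene overlapped between the ages. None of the calls on Cdkn1c, Clic3, Lmx1b, Ddn, Podxl, Prkcz and Fat1 held with the 18S or the actin covariate or without 5-week arrays 7, 8 and 9, and with arrays centred 1 of the 31 podocyte identity genes rose and 3 fell.

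Basement membrane and integrin genes gave 6 falls and 3 rises among 32, with a median of -0.03. With the 18S covariate 1 fell and none rose, and without array 6, 16 or 18 the rises were 1. Nid1, nidogen, which links laminin to type IV collagen, read 10.77, 9.71, 9.54, 9.89 and 9.86 at 5 weeks and 8.94, 8.73, 8.71 and 8.60 at 44 weeks. It fell by 1.21 ± 0.19 (adjusted p = 0.000297), with no overlap. The laminin gamma chain Lamc1 fell by 0.84 ± 0.17 (0.00175), from 7.59 to 8.11 down to 6.69 to 7.13. Lamc1 was again without overlap, while its 2 probe sets gave -0.84 and 0.17.

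The collagen IV chains of the adult glomerular membrane did not move together. Col4a4 read 11.81, 11.58, 11.45, 11.59 and 11.40 at 5 weeks and 10.79, 11.01, 11.17 and 11.15 at 44 weeks, and fell by 0.54 ± 0.11 (adjusted p = 0.00205). Col4a3 (0.22 ± 0.14) and Col4a5 (-0.12 ± 0.15), which assemble with Col4a4 and were named for that after their values were seen, did not pass (0.297 and 0.615). Tns1, the focal adhesion protein tensin, rose by 0.82 ± 0.16 (0.0017) with no overlap. The laminin receptor subunit Itga3 rose by 0.77 ± 0.23 (0.0242), a call that ended without any one of arrays 6, 7, 16 and 18, and it differed by -0.00 ± 0.25 in KI. In KI 2 of the 32 rose and 5 fell, Nid1, Lamc1 and Col4a4 among them (-0.83, -0.54 and -0.44).

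Matrix proteases and their inhibitors gave 4 rises and 4 falls among 24 (16.7% each, against 11.3% and 8.85% of all genes). The falls were 1 without array 6, 7 or 18 and 2 without array 15 or 17, and the rises were 2 without array 18. The sheddase Adam9 read 9.68, 9.84, 9.78, 9.74 and 9.40 at 5 weeks and 10.40, 10.57, 10.55 and 10.51 at 44 weeks. It rose by 0.82 ± 0.11 in WT and by 0.88 ± 0.12 in KI (adjusted p = 6.14e-05 and 7.63e-05). Reck, a membrane-bound inhibitor of metalloproteases, rose by 0.84 ± 0.23 (0.0147), and the versican-cleaving Adamts15 fell by 1.06 ± 0.25 (0.00584). Without array 18 Reck did not pass. Of 29 fibrosis and TGF-beta genes 2 rose and 2 fell; Ltbp1, which holds latent TGF-beta in the matrix, fell by 1.19 ± 0.32 (0.0124).

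Of 58 actin regulators 13 fell (22.4%, against 8.85% of all genes) and 4 rose (6.90%, against 11.3%), with a median of -0.08. The falls were 7 without array 18 and 8 without array 6 or 7, and the rises were 1 without array 9, 15 or 18. Cotl1, the coactosin-like actin-binding protein, is outside that list and was among the 15 largest falls without overlap. Its values of 9.94, 9.89, 9.58, 9.73 and 9.85 at 5 weeks stood against 8.23, 8.40, 7.88 and 8.23 at 44 weeks. The fall was 1.62 ± 0.20 in WT and 1.56 ± 0.21 in KI (adjusted p = 1.67e-05 and 6.68e-05). Cfl1, the filament-severing cofilin, fell by 0.35 ± 0.06 (0.000875), from 12.87 to 13.05 down to 12.56 to 12.68, and Capzb, of the capping protein, by 0.43 ± 0.08 (0.000992), from 11.55 to 11.70 down to 11.01 to 11.34. Limk1, the kinase that inactivates cofilin, fell by 0.78 ± 0.16 (0.00259) and the profilin Pfn2 by 0.58 ± 0.14 (0.00818). None of these 5 genes overlapped between the ages.

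The lowest differences in the actin list were those of Evl, an Ena/VASP protein, at -0.96 ± 0.28 and the membrane-actin linker Marcks at -0.88 ± 0.29, and the highest were those of the class I myosin Myo1e at 0.91 ± 0.30 and the formin Diaph2 at 0.55 ± 0.14 (adjusted p = 0.0203, 0.0345, 0.0335 and 0.0115). Evl did not pass without array 7, 15 or 18, Marcks without 6, 10, 16, 17 or 18, or Myo1e without 7, 8, 9, 15 or 18. Actn1, the paralog of the gene mutated in KI, read 10.76, 10.30, 9.85, 9.87 and 10.17 at 5 weeks and 10.97, 9.79, 10.10 and 9.71 at 44 weeks. The ages overlapped, and it did not pass (-0.05 ± 0.23, 0.904). In KI 3 actin genes rose and 8 fell. With arrays centred none of the 58 rose and 17 fell in WT, and with the actin control as a covariate none rose and 3 fell.

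**Figure D3:**
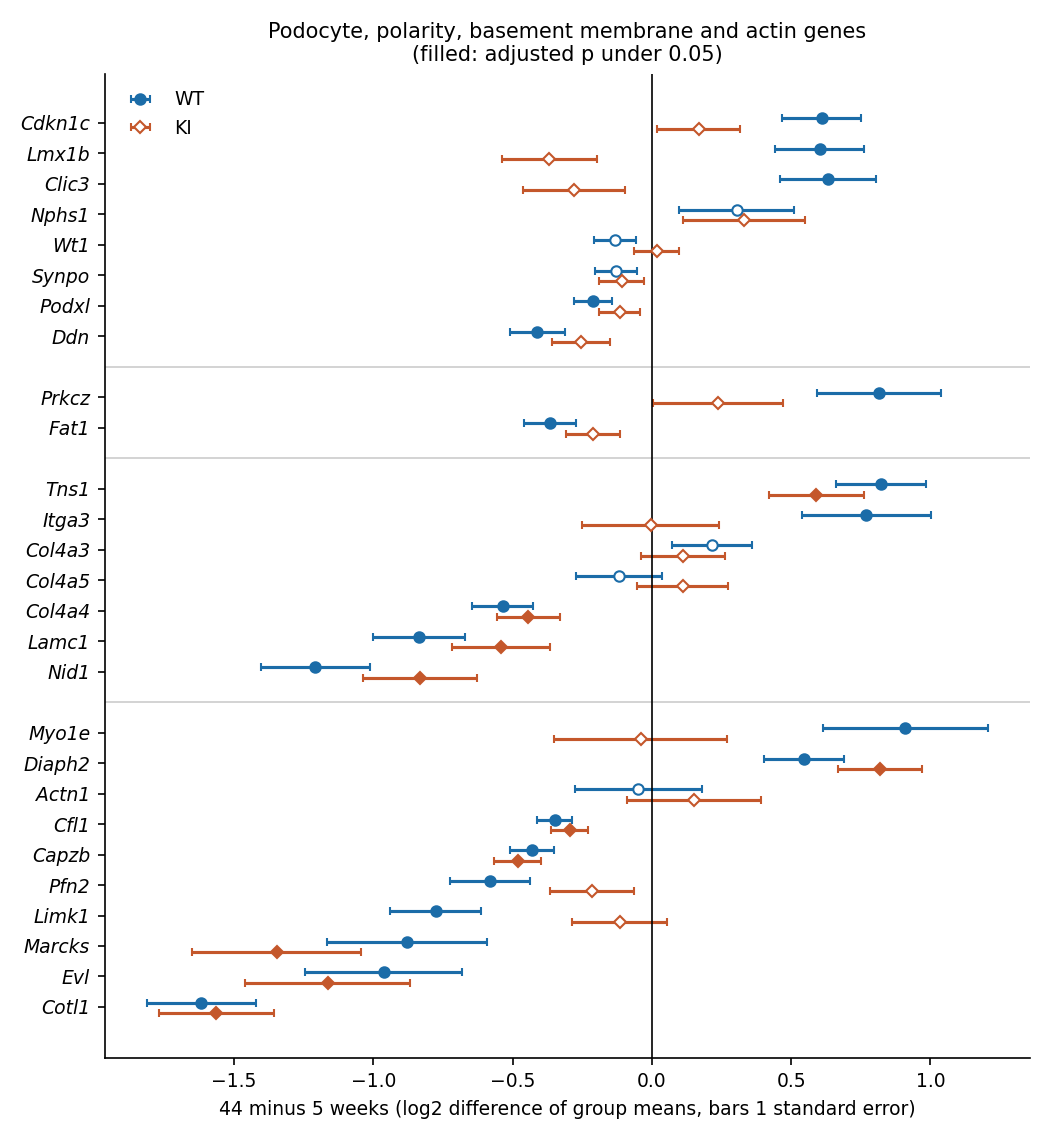
Difference between 44 and 5 weeks (log2, horizontal axis, bars 1 standard error) of podocyte, polarity, basement membrane and actin genes in WT (blue circles) and KI (orange diamonds), filled where the adjusted p was under 0.05. Cotl1 has the lowest WT value (-1.62) and Myo1e the highest (0.91), while Wt1, Synpo, Nphs1 and Actn1 are open in both sets.

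Several cell cycle genes fell and none rose. Of 32 tested, 10 fell in WT (8.85% of all genes did) with a median of -0.36, and 8 fell in KI with a median of -0.32. The 10 include Mki67, which was dim at 44 weeks (4.36) and entered the test through brighter arrays. In WT 6 fell without array 6, 15, 16 or 18, 2 with the actin covariate and 1 with the 18S covariate. Ccnd2, cyclin D2 of the entry into the cycle, read 9.30, 9.06, 8.46, 8.93 and 8.56 at 5 weeks and 8.26, 7.22, 7.23 and 7.56 at 44 weeks. It fell by 1.30 ± 0.21 (adjusted p = 0.000375) with no overlap, and by 1.12 ± 0.23 in KI. The replication helicase subunit Mcm6 fell by 2.18 ± 0.54 (0.00797), from 5.72 to 7.66 down to 3.99 to 6.03, and array 18 alone reached the young arrays. Top2a, the topoisomerase of dividing cells, fell by 1.33 ± 0.34 (0.0104), from 7.44, 7.33, 5.39, 5.91 and 5.84 to 5.52, 5.05, 5.24 and 4.39. The mitotic kinase Cdk1 fell by 0.96 ± 0.32 (0.039), and the proliferation antigen Mki67 differed by -0.98 ± 0.30. The Cdk1 call ended without array 6, 9, 10, 16, 17 or 18, and Mki67 did not pass without 6, 7, 16 or 18. Which cells the cell cycle transcripts came from was not tested. The mean of the 32 genes was highest on 5-week array 6 (7.03) and, among the 5-week arrays, lowest on array 10 (6.48), while the fibroblast and osteoblast mean was high on both (8.77 and 8.64).

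Of the 10 cell cycle genes that fell, 7 had a RefSeq promoter window, and 3 of these are shown. All 3 hold letters known from mitotic promoters. The window of Mcm2 holds the same 2 motifs and is not shown, so the motifs alone do not account for the choice. Cdk1 and Mki67 were named after their values were seen. Mki67 was dim in the older mice, and the Cdk1 call depends on which arrays enter. Capitals mark TTTGAA, the cell cycle homology region bound by the DREAM complex, and CCAAT, bound by NF-Y, each on either strand (TTCAAA and ATTGG are the same letters on the opposite strand). The windows lie on the minus strand of GRCm38.p6, at chr10:69352863-69353162 for Cdk1, chr11:99024140-99024439 for Top2a and chr7:135716330-135716629 for Mki67, and are written 5′ to 3′ along the gene.
Cdk1: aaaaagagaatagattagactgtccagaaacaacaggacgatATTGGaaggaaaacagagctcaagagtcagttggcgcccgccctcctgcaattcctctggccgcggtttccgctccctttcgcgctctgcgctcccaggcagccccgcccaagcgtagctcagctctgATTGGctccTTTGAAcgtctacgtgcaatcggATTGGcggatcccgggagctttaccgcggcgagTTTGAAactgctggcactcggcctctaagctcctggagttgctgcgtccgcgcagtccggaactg
Top2a: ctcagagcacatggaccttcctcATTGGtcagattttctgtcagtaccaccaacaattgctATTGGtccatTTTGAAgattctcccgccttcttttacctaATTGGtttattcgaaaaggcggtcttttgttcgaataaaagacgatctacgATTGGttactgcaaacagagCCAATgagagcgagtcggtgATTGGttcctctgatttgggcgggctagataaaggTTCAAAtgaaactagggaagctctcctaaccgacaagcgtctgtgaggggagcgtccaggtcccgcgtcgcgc
Mki67: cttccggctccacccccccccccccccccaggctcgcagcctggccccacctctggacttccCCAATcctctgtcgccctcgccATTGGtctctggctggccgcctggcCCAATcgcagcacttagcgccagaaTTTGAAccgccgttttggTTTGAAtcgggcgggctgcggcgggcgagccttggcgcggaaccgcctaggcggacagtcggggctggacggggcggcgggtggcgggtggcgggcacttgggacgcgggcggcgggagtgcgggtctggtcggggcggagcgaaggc
TTTGAA occurred in 4 of the 7 windows, those of Cdk1, Mcm2, Mki67 and Top2a, and in 17.9% of all 32851 RefSeq promoter windows. CCAAT occurred in 6 of the 7 and in 37.4% of all windows. Matches of the 2 motifs can share 1 base at their ends. These are matches of letters, given as a description. Windows of cell cycle genes that did not fall were not counted, so no link between the motifs and the falls was tested.

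Growth arrest, senescence and p53 target genes gave no rise and 2 falls among 24, with a median of -0.03. Cdkn2d, the cyclin-dependent kinase inhibitor p19, fell by 0.63 ± 0.12 (adjusted p = 0.0018), from 8.06, 8.17, 8.37, 8.26 and 8.09 to 7.53, 7.62, 7.66 and 7.45, with no overlap. In KI 3 of the 24 rose and 2 fell. Of 11 imprinted growth genes 1 rose, Cdkn1c, and 2 fell, Ndn (-0.76) and Rian (-0.50).

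Immediate-early genes gave 4 falls (15.4%, against 8.85% of all genes) and no rise among 26, with a median of -0.41. With the 18S covariate none fell, and without array 10 the falls were 8. Egr1, a transcription factor induced by many stimuli, read 12.04, 11.65, 11.07, 11.04 and 10.88 at 5 weeks and 8.45, 9.92, 10.48 and 9.51 at 44 weeks. It fell by 1.75 ± 0.30 (3.36-fold, adjusted p = 0.000581) with no overlap, and differed by 0.10 ± 0.32 in KI. The AP-1 genes Junb and Jund fell by 0.97 ± 0.20 and 0.43 ± 0.09 and the early gene Ier2 by 0.80 ± 0.17 (0.00254, 0.00211 and 0.00239). In KI 3 of the 26 rose and 2 fell, with a median of 0.25, while Ier2 fell there by 0.76 ± 0.18. Of 17 circadian clock genes none passed in WT, and 5 rose in KI (Per2, Cry2, Nr1d2, Bhlhe40 and Rora).

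Of 24 podocyte secreted factors and receptors 3 rose (12.5%, near the 11.3% of all genes) and none fell, with a median of 0.20; without array 15 or 17 the rises were 1. The insulin receptor Insr rose by 0.82 ± 0.21, the related Igf1r by 0.90 ± 0.29 and the endothelin receptor Ednrb by 1.18 ± 0.37 (adjusted p = 0.0107, 0.0354 and 0.0295). All 3 rose in KI as well, by 0.95, 1.20 and 1.78. Ednrb did not pass without array 7, 9, 15 or 17, or Igf1r without 6, 10, 15, 17 or 18.

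In the list of unfolded protein response and heat shock genes 5 of 34 rose (14.7%, near the 11.3% of all genes) and 2 fell in WT, and 7 rose and 1 fell in KI. The WT median was 0.09, and -0.04 with arrays centred; without array 10 or 15 the rises were 9 or 8. Ern1, the sensor IRE1, read 6.77, 7.02, 7.25, 6.86 and 6.56 at 5 weeks and 7.38, 7.89, 8.05 and 7.79 at 44 weeks, a rise of 0.89 ± 0.16 (adjusted p = 0.000875). Eif2ak3, the sensor PERK, rose by 0.71 ± 0.15 and Herpud1, of the degradation of misfolded proteins, by 0.78 ± 0.19 (0.00345 and 0.0075), and the stress-induced pseudokinase Trib3 differed by 0.71 ± 0.12. These 4 genes were named because their p values were the smallest of the list, which lends no support. Trib3, one of the 5 rises, was dim at 5 weeks (4.29) and entered the test through brighter arrays. Ern1, Eif2ak3, Herpud1 and Trib3 did not overlap between the WT ages, and in KI they differed by 1.09, 0.66, 0.71 and 0.72.

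Of 24 cholesterol and lipid genes 3 rose and 2 fell (12.5% and 8.33%, near the 11.3% and 8.85% of all genes); without array 7, 15 or 18 the rises were 1. Ppara, the nuclear receptor that switches on fatty acid oxidation, read 7.26, 6.33, 7.10, 5.95 and 6.81 at 5 weeks and 9.05, 7.65, 8.25 and 8.07 at 44 weeks, a rise of 1.56 ± 0.29 (adjusted p = 0.000932) with no overlap. Dhcr7, the last enzyme of cholesterol synthesis, read 11.20, 10.84, 10.80, 10.76 and 10.84 at 5 weeks and 9.72, 9.97, 9.48 and 9.83 at 44 weeks, a fall of 1.14 ± 0.13 (1.41e-05). Srebf2, the transcription factor that drives cholesterol synthesis, fell by 0.56 ± 0.11 (0.00182). In KI Ppara rose by 1.50 ± 0.30 and Dhcr7 fell by 0.98 ± 0.14. Of 27 antioxidant genes 3 rose and 1 fell; the glutathione transferase Gstt1 rose by 1.04 ± 0.18 (0.000697).

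Some antigen presentation and macrophage genes rose. Of 16 antigen presentation genes 5 rose and none fell (11.3% of all genes rose), with a median of 0.54, and in KI 2 rose and 1 fell. Cd74, the invariant chain of MHC class II, read 8.13, 7.00, 7.82, 7.98 and 9.47 at 5 weeks and 10.15, 8.55, 9.93 and 9.73 at 44 weeks, a rise of 1.51 ± 0.40 (adjusted p = 0.0121) with overlap through array 10. The class II chains H2-Aa and H2-Eb1 rose by 1.37 ± 0.32 and 0.89 ± 0.23 (0.00607 and 0.0108). The class I gene H2-D1 rose by 0.89 ± 0.20 (0.00463), but the mean of its 5 probe sets differed by -0.01, and class I genes are near-identical copies.

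Of 16 macrophage and monocyte markers 6 rose and 1 fell, with a median of 0.57. With the dimmest 50% of genes left out (below 6.55), none of the markers kept rose and 1 fell. All 6 rises were thus among the dimmer genes. Fcgr3, an Fc receptor for IgG, read 4.89, 4.35, 4.97, 4.47 and 4.53 at 5 weeks and 5.89, 5.43, 5.91 and 5.53 at 44 weeks, and rose by 1.05 ± 0.19 (adjusted p = 0.000803) without overlap. Laptm5, a lysosomal protein of leukocytes, rose by 0.90 ± 0.16 and the signalling adaptor Tyrobp by 1.02 ± 0.25 (0.000875 and 0.00701). Fcgr3 rose in KI by 0.88 ± 0.20, while Laptm5 and Tyrobp differed there by 0.30 and 0.28 and did not pass. Prf1, perforin of cytotoxic cells, rose by 0.92 ± 0.18 (0.00159), the only one of 6 tested T and NK cell genes to pass. With the tubule covariate 2 macrophage markers rose and 1 antigen presentation gene did, and with the 18S covariate none did.

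Kidney injury genes and chemokines gave 6 rises and 1 fall among 19, with a median of 0.34; Pigr is one of the 6. Ccl28, a chemokine that draws IgA-producing plasma cells to mucosa, read 6.18, 4.24, 4.72, 7.20 and 6.07 at 5 weeks and 7.11, 7.53, 8.75 and 7.40 at 44 weeks. Only array 9 of the young arrays reached the old ones, and Ccl28 rose by 2.01 ± 0.49 (adjusted p = 0.00769); its 3 probe sets gave 0.19 to 2.01, and it differed by -0.37 ± 0.52 in KI. Clu, the chaperone clusterin, rose by 1.00 ± 0.21 (0.00255). Of 17 complement genes 3 rose, Clu among them, and 1 fell. Of 23 interferon response genes none rose and 1 fell, Rtp4 (-0.88).

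Some tubule markers rose, chiefly those beyond the proximal tubule. Of 26 loop, distal tubule and collecting duct markers 11 rose (11.3% of all genes did) and none fell, with a median of 0.67. All 26 had a positive difference, as did 6657 of all 11968 genes. The 11 include Aqp3 and Aqp4, which were under 4.60 at 5 weeks (4.34 and 4.57) and entered the test through brighter arrays. In KI 3 rose and the median was 0.25. Without array 8, 15 or 17 the WT rises were 6 and without array 7 or 18 they were 7, with the tubule covariate 2 and with the 18S covariate none. Tmem213, of intercalated cells, read 7.34, 6.77, 7.40, 7.00 and 7.52 at 5 weeks and 8.26, 7.96, 8.41 and 8.30 at 44 weeks, a rise of 1.03 ± 0.17 (adjusted p = 0.000477) with no overlap. Foxi1, the transcription factor of intercalated cells, rose by 1.14 ± 0.28 (0.00709), and Slc12a3, the thiazide-sensitive cotransporter of the distal tubule, by 1.56 ± 0.44 (0.017), a call that ended without array 7 or 17. Of 24 proximal tubule markers 3 rose and none fell, with a median of 0.52. The sulfate transporter Slc13a1 rose by 1.22 ± 0.32 (0.0107) and the oxidase Hao2 by 1.44 ± 0.44 (0.0257). Without array 15, the array with the highest tubule level, neither passed and none of the 24 proximal markers rose, and Hao2 did not pass without array 8 either. Of 23 endothelial markers none passed, with a median of 0.41.

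Some subunits of the respiratory chain and of ribosomes rose slightly. Of 71 respiratory chain and ATP synthase genes 24 rose (33.8%, against 11.3% of all genes) and none fell, with a median of 0.20; without array 7 the rises were 16. In KI 1 rose and 3 fell. Cox6b1, of cytochrome c oxidase, read 11.71, 11.66, 11.89, 11.78 and 12.25 at 5 weeks and 12.46, 12.54, 12.51 and 12.46 at 44 weeks, a rise of 0.63 ± 0.09 (adjusted p = 0.000138). The complex I subunits Ndufa3 and Ndufb3 rose by 0.61 ± 0.11 and 0.71 ± 0.13 (0.000551 and 0.000875). All 3 were without overlap, and 5-week array 10 stood nearest to the old arrays. With arrays centred 12 of the 71 rose and 6 fell, with a median of 0.06, and with the 18S covariate 1 rose.

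Of 65 cytosolic ribosomal protein genes 19 rose and 3 fell, with a median of 0.07; centring the arrays left 8 rises and 8 falls, and the median turned to -0.06, and with the 18S covariate 2 rose. Rpl23a read 11.84, 11.87, 11.98, 11.87 and 12.65 at 5 weeks and 12.83, 13.02, 12.93 and 12.96 at 44 weeks, a rise of 0.89 ± 0.12 (adjusted p = 5.66e-05) that was 0.19 ± 0.13 and did not pass in KI. Rplp0 rose by 0.92 ± 0.17 and Rpl35 by 0.71 ± 0.12 (0.000838 and 0.00056). Ribosomal protein genes have many near-identical pseudogenes, so their probe sets are uncertain. Of 47 proteasome, autophagy and lysosome genes 13 rose and 2 fell, with a median of 0.07, or -0.07 with arrays centred; without array 18 the rises were 7 and with the 18S covariate 3. Ctsh, the lysosomal cathepsin H, rose by 1.11 ± 0.22 and Npc2, which hands cholesterol out of the lysosome, by 0.63 ± 0.11, while the proteasome subunit Psma5 fell by 0.53 ± 0.10 (0.00182, 0.000899 and 0.000838).

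**Figure D4:**
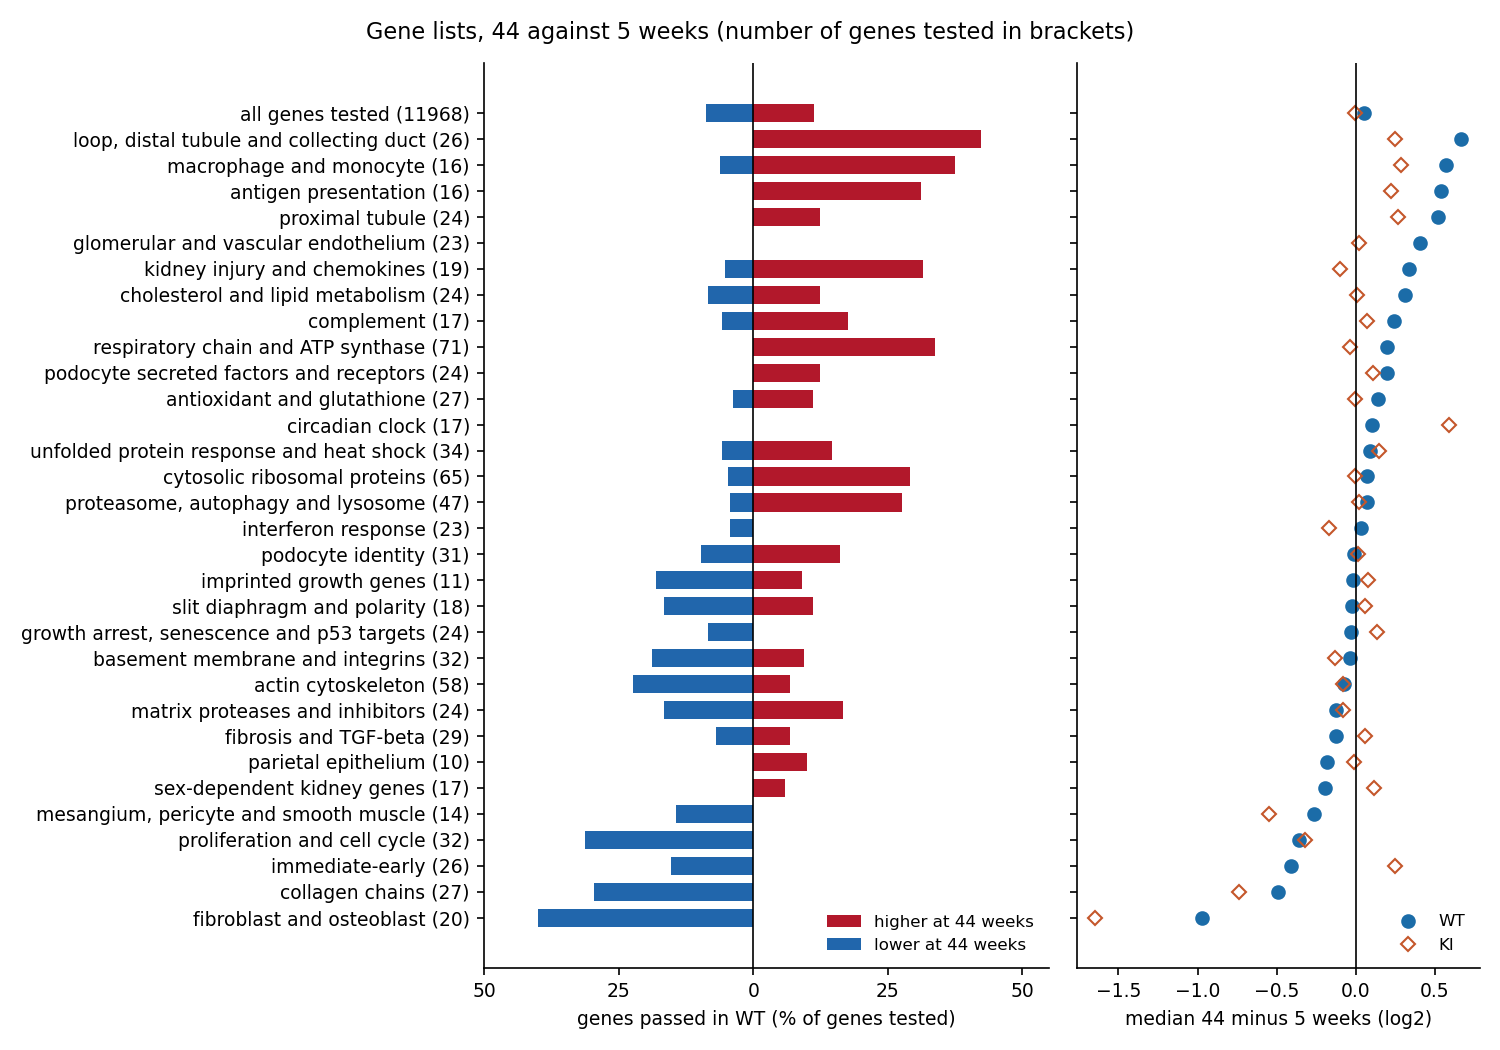
Share of tested genes that passed higher (red) or lower (blue) at 44 weeks in WT for each list of at least 10 genes (percent, left), and the median difference in WT (filled circles) and KI (open diamonds; log2, right). The fibroblast and osteoblast list is lowest (median -0.97) and the loop, distal tubule and collecting duct list highest (0.67), against 0.05 over all 11968 genes.

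The same age step in KI shares no array with the WT comparison, but both tests use the same estimate of each gene's spread. In KI 2005 genes (16.8%) passed, 971 higher (8.11%) and 1034 lower (8.64%). Of the genes called higher in WT, 364 were also called higher in KI, which is 27.0% of the WT and 37.5% of the KI calls, and 3 were called lower. Of the genes called lower in WT, 355 were also called lower in KI (33.5% and 34.3%), and 1 was called higher. The sign in KI was the same for 74.4% of the WT rises and 86.9% of the WT falls, where 49.5% and 50.5% of all genes had that sign.

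The difference between the WT and KI age steps was tested as an interaction, and no gene passed with limma. At an unadjusted p under 0.05 there were 2335 genes (19.5%), and the lowest adjusted p was 0.094. The smallest p values belonged to Mri1, an enzyme of methionine salvage, at 0.97 ± 0.17 in WT and -0.35 ± 0.18 in KI, to Mgll, the monoacylglycerol lipase, at 1.61 ± 0.39 and -1.33 ± 0.41, and to Rab25, an epithelial recycling GTPase, at 1.25 ± 0.20 and -0.24 ± 0.21. In the other direction they belonged to the phosphodiesterase Pde4b at -0.36 ± 0.17 and 0.92 ± 0.18, the polymerase subunit Polr3gl at -1.05 ± 0.13 and -0.20 ± 0.13, and the mitochondrial Higd1a at -0.64 ± 0.09 and -0.06 ± 0.09. The adjusted p of the difference was 0.094 to 0.097 for all 6. Pigr, whose rise was 2.09 larger in WT, had an adjusted p of 0.114, and Egr1 one of 0.097. Without WT 5-week array 10 the interaction called 1561 genes, without 44-week array 17 it called 2, and with array weights 2041, so the count of 0 rests on which arrays enter.

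**Figure D5:**
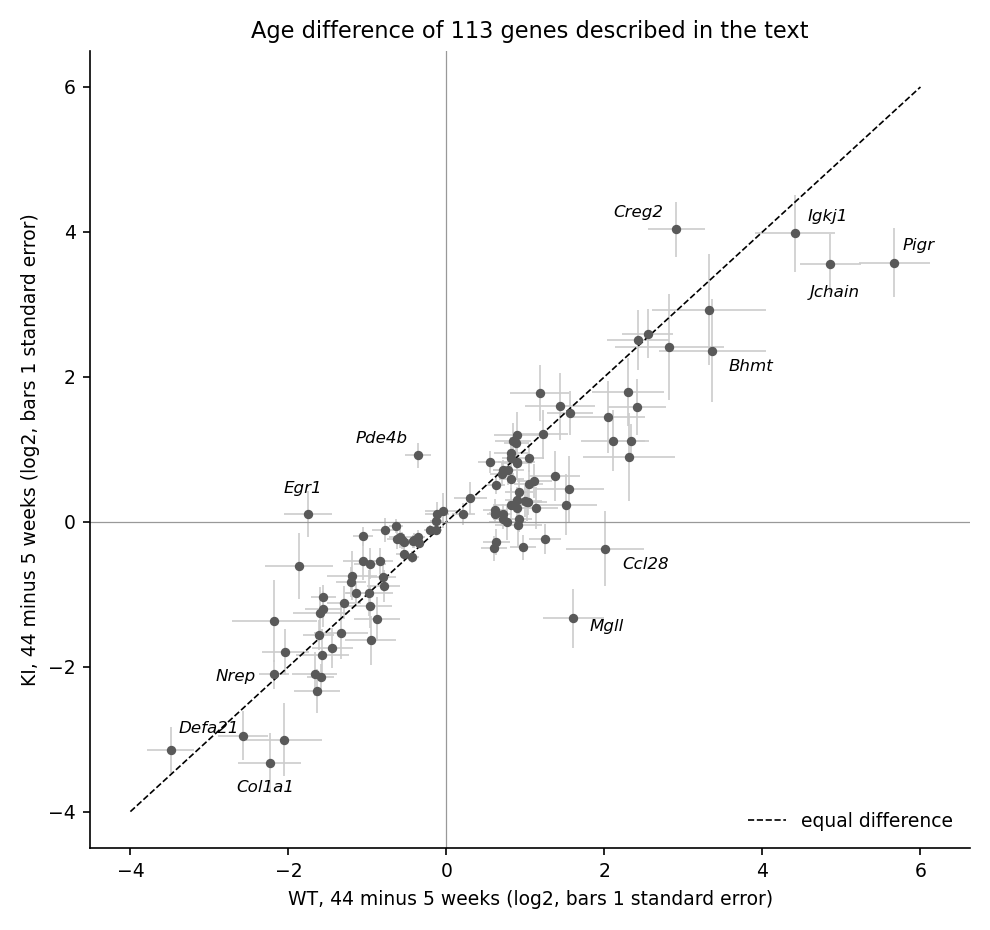
Difference between 44 and 5 weeks in KI (vertical axis) against that in WT (horizontal axis) for 113 genes described in the text (log2, bars 1 standard error), with a dashed line for equal differences. Pigr (5.67 and 3.58) and Jchain (4.86 and 3.56) lie highest in WT, and Mgll (1.61 and -1.33) lies on opposite sides of 0.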

How the data were processed

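RNA on tagged ribosomes was amplified with NuGEN WT-Ovation and Encore Biotin kits and hybridised to expression arrays, per the labels' protocols. The values are those of the series table that the authors deposited, read as log2 because another base would exceed the scanner's range; the sources used here do not give their normalization. Of 45141 probe sets, 28898 list 1 symbol; each gene was represented by the brightest of its own (by mean over the 25 arrays), and the 30% dimmest of 17097 genes were left out (below 4.60). limma 3.58.1 (R 4.3.3) fitted 6 group means over the 25 arrays, with a Benjamini-Hochberg adjusted p under 0.05 as the threshold. On simulated data with 200 changed genes among 11968 it recovered 81.4% of 2-fold and 96.9% of 4-fold changes for the WT comparison. The simulated noise was independent between genes, so it held no differences that many genes of an array share, and these rates may not apply to the real arrays. Array medians differed by at most 0.17 over all probe sets, and ran from 6.25 to 6.73 over the probe sets that represent genes.

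The members and lists were chosen with earlier results of these data known. The rule named the 15 largest rises and 15 largest falls without overlap, for each list the 4 genes with the smallest p (with the 2 highest and 2 lowest where over 8 passed), Col1a1, Rpl10a, Actn1 and Wt1, and 3 genes each way for the interaction; the text gives a part of these. Col4a3, Col4a5, Nphs1, Synpo, Cdk1 and Mki67, genes named only to spell out a count, and the lists of collagen chains and immunoglobulin segments were chosen after their values were seen. Covariates, filters, normalizations, probe set choices and left-out arrays were tried as 25 alternatives, 3 of them chosen after seeing the data: the actin and 18S covariates and the fit without 5-week arrays 7, 8 and 9 and 44-week array 15. Sequences are RefSeq's.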

Additional observations from a re-analysis of the deposited data

Results flagged for a closer look

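In 16 of 234 groups of WT values tested, 1 array stood far from the others of its age; chance gives about 1 in 20. On 5-week array 6 these were Nid1 (10.77), Tns1 (10.87), Tpgs2 (10.08) and Dhcr7 (11.20), each the highest of its age. On 5-week array 10 they were Nrep (10.24), Rpl23a (12.65), Srebf2 (8.92) and Rab25 (6.13). On 5-week array 7 Slc13a1 read 7.48 and Trib3 4.61, and on array 9 Jchain read 5.36. Among the 44-week arrays, Lmx1b (4.74), Aqp4 (8.77) and Folh1 (8.29) stood apart on array 17, Col4a3 (11.20) on array 15 and Mgll (9.31) on array 18.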

How the results depend on the processing

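The WT count of 2408 (1349 higher, 1059 lower) became 567 (285 and 282) with only the arrays compared, 1124 (580 and 544) with only WT arrays, 3762 (2402 higher) with array weights and 1299 (767 and 532) with the tubule covariate. It became 851 (382 and 469) without 5-week arrays 7, 8 and 9, 991 (491 and 500) with 44-week array 15 left out as well, 780 (431 and 349) with the actin covariate and 334 (208 and 126) with the 18S covariate. Arrays centred on their medians gave 669 higher and 1731 lower. With one array left out at a time the count was 1629 to 3103, with 834 to 1820 higher and 724 to 1283 lower; 1152 genes were called in all of these fits and 232 in all of the first 22 alternatives. The KI count of 2005 (971 higher, 1034 lower) was 1891 to 2482 (912 to 1169 and 979 to 1313) with one WT array left out, which changes only the shared spread, and 3478 (1590 and 1888) with array weights. The interaction called 0 to 1561 genes with one WT array left out and 2041 with array weights. With the mean of all probe sets Podxl turned to 0.20 and H2-D1 to -0.0094. Of the 106 called genes named, the dim ones included, 92 passed in every fit with one array left out. A fit with fewer arrays estimates the spread from fewer values. With only its own 8 arrays in the fit, the KI count rose to 2444 (1219 higher and 1225 lower), where the WT count fell. The cause of these changes in count was not tested. No paired analysis was possible because the array numbers are not shared between the groups. The 18S and actin measures do not overlap between the WT ages, so the covariates and age are hard to separate, and dim genes such as Jchain at 5 weeks have folds that depend on the signal floor.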
